A study of Mus musculus with 2 samples.

Results

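Mouse genes for the later steps of branched-chain amino acid breakdown were examined: Ivd, Mccc1, Mccc2 and Auh for leucine, Acadsb for isoleucine, and Acad8, Hibch, Hibadh and Aldh6a1 for valine. The 9 genes were taken by symbol from the gene count table, where each had 1 row among 24532 genes, and all 9 passed the minimum mean of 5 CPM (counts scaled to a common library size, where 1 CPM was 131 counts in the first library and 101 in the second), as did 9935 genes in all. The cells were cardiac myofibroblasts, matrix-producing cells of the injured heart, isolated from C57BL/6 mice 3 days after myocardial infarction. By lipid transfection they were given siRNA at 12.5 nM, either the control (siControl) or 1 sequence against Bcat1 (siBcat1), and they stayed in culture for 72 hours. Bcat1 encodes the cytosolic aminotransferase that starts branched-chain amino acid breakdown. Each treatment was sequenced as 1 library, so the data hold no spread between replicates and allow no test of a difference. No second siRNA against Bcat1 was analysed here, and nothing in the labels says how many animals or cultures a library stands for.

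Leucine, isoleucine and valine first lose their amino group to BCAT enzymes and then a carboxyl group to the branched-chain ketoacid dehydrogenase complex in mitochondria. The resulting branched acyl-CoAs are each oxidised by an acyl-CoA dehydrogenase of their own, IVD for leucine, ACADSB (the short/branched-chain enzyme) for isoleucine and ACAD8 (isobutyryl-CoA dehydrogenase) for valine. The leucine branch then runs through the biotin enzyme methylcrotonyl-CoA carboxylase, built from MCCC1 and MCCC2, and the hydratase AUH, and it ends in acetyl-CoA and acetoacetate. The valine branch runs through the hydrolase HIBCH, which frees 3-hydroxyisobutyrate from its CoA, the dehydrogenase HIBADH and the semialdehyde dehydrogenase ALDH6A1, and it ends in propionyl-CoA.

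Total counts were 127309329 for siControl and 104581819 for siBcat1. Bcat1 itself was at 8891 and 99 counts, which matches the labels. Of the listed fibroblast and myofibroblast markers, 12 of 12 passed the minimum, and their summed level was 35477 CPM in siControl and 22165 CPM in siBcat1. Collagen genes weighed heavily in that sum: Col1a1 had 11058 and 4345 CPM, Col1a2 9535 and 3919, and Col3a1 4638 and 2412. The markers did not move as one, with log2 folds from -1.47 for Pdgfrb to 0.63 for Thy1. Acta2 had 3380 and 3139 CPM, and Vim 4724 and 6985. Of 9 leukocyte markers 1 passed, Lyz2 with 5.46 and 21.3 CPM, and the list summed to 10.3 and 28.8 CPM, with Ptprc and Adgre1 at 0 in both libraries. Cardiomyocyte markers summed to 46.4 and 10.4 CPM, nearly all of it Tnnt2, with Myh6, Myl7 and Ryr2 at 0 in both. Endothelial markers summed to 44.5 and 43.5 CPM, smooth muscle and pericyte markers to 8.46 and 4.63 CPM, and epicardial markers to 22.1 and 6.67 CPM. The part of these cell types in the values below was not tested, and fewer cells of a type cannot be told apart from less RNA per cell.

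The downstream genes did not shift together between the libraries. Bcat1, the siRNA target, had a log2 fold of -6.11 and ranked 3 from the lowest of 9935 genes. The 9 genes differed far less, as nearly all genes did. Of the 9 genes, 6 lay within 1.5-fold. In the siBcat1 library Acad8 and Hibch of the valine branch were higher by more than 1.5-fold, and Ivd of the leucine branch was lower by more than 1.5-fold. The 95% interval of counting error lay wholly past 1.5-fold for Acad8, but not for Hibch or Ivd. The log2 fold, siBcat1 over siControl in counts scaled by trimmed mean of M values (TMM) factors, had a median of 0.13 over the 9 genes and -0.06 over all 9935 genes. Of the whole table, 17.6% of genes passed 1.5-fold upward and 25.6% downward, so 2 higher and 1 lower of 9 genes is close to what the whole table showed. Folds of this size were common in these libraries: 22.99% of all genes had a lower fold than Ivd, and 14.4% had a higher one than Acad8.

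The scale of the comparison matters for folds this small. The median log2 fold of all genes moved by 0.13 with upper-quartile factors and by -0.50 with the deposited TPM (a unit of transcript abundance scaled for length and depth, here with a pseudocount of 0.1). In TPM, 3.94% of genes passed 1.5-fold upward and 48.8% downward, and of the 9 genes none passed upward and Ivd and Mccc2 passed downward, with -1.15 and -0.60. Relative to the median of all genes, counts and TPM gave nearly equal values: -0.59 on both scales for Ivd, 0.73 and 0.72 for Acad8, and 0.69 and 0.68 for Hibch, each on the log2 scale. This largely had to be so. The log2 ratio of the libraries in TPM differed from that in unscaled counts by a median of -0.13 over all genes, and by -0.13 for Ivd, Acad8 and Hibch. Ivd lay below 0, and Acad8 and Hibch above 0, in all 9 settings tried. The other 6 genes took both signs across those settings. The settings are not separate support, since the scaling factors and TPM move the 9 genes by a near-common amount. Acad8 passed 1.5-fold upward in 6 of the 9 settings and Hibch in 3, and Ivd passed downward in 6. The lowest value of Hibch was 0.11, with the length and GC trends removed. Length-adjusted folds have the trend of log2 fold on transcript length over all genes subtracted. Brackets beside folds are exact 95% intervals of counting error alone, and they would be too narrow if both reads of a pair were counted, which the sources do not say.

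**Figure D1:**
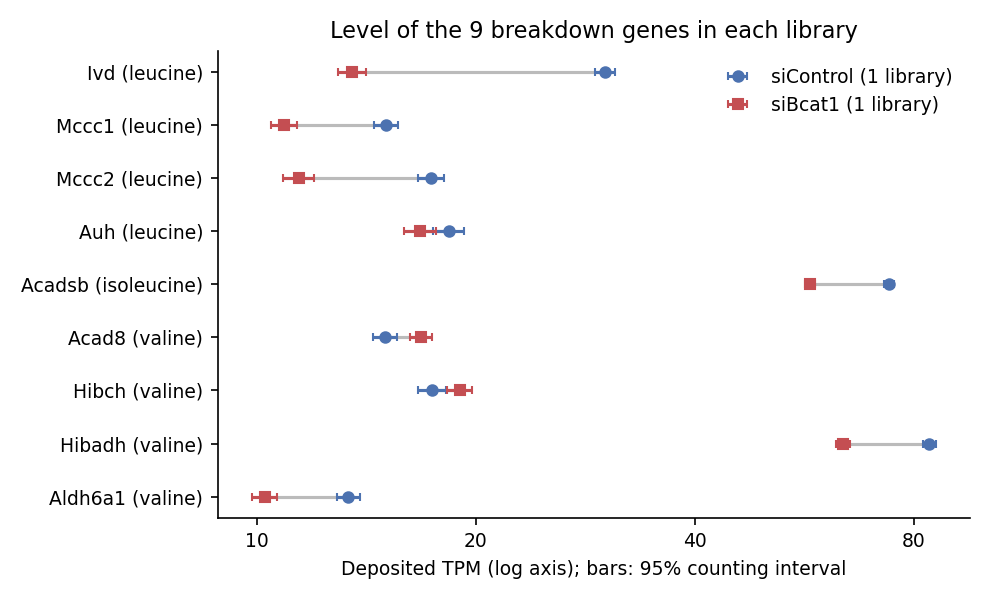
Deposited TPM (log axis) of the 9 genes in the siControl library (circles) and the siBcat1 library (squares), with 95% intervals of counting error as bars and 1 library per group. Hibadh and Acadsb stand apart at 57.6 TPM or more in both libraries, and Ivd goes from 30.1 to 13.5 TPM.

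Per length, Hibadh and Acadsb were the most abundant of the 9 genes in both libraries. In siControl, Hibadh had 83.9 TPM and Acadsb 73.9 TPM, and in siBcat1 they had 63.9 and 57.6 TPM. Ivd was the third in siControl with 30.1 TPM, followed by Auh with 18.4, Hibch with 17.4, Mccc2 with 17.3, Mccc1 with 15.1, Acad8 with 15.01 and Aldh6a1 with 13.4 TPM. In that run the counting intervals of neighbours overlapped from Auh to Mccc2 and for Mccc1 and Acad8, so their order is not resolved. In siBcat1 Hibch was the third with 19.0 TPM, then came Acad8 and Auh with 16.8 TPM each, and Ivd was the sixth with 13.5 TPM, ahead of Mccc2 with 11.4, Mccc1 with 10.9 and Aldh6a1 with 10.3 TPM. There the intervals of Acad8 and Auh, of Mccc2 and Mccc1, and of Mccc1 and Aldh6a1 overlapped. The place of Ivd rests on the transcript length behind the deposited TPM, which was shorter than the GENCODE length. Put on GENCODE lengths, Ivd had 17.0 and 7.63 TPM and was the seventh in siControl and the ninth in siBcat1, while Hibadh with 79.7 and 60.7 TPM and Acadsb with 40.7 and 31.7 TPM still led.

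Summed over the 9 genes, the level was 284 TPM in siControl and 220 TPM in siBcat1, while the summed counts, 43226 and 36681, gave a scaled log2 fold of 0.14 [0.12 to 0.16]. The direction of the sum thus depended on the scale. The leucine genes made up 28.4% of the summed TPM in siControl and 23.9% in siBcat1, the isoleucine gene Acadsb 25.96% and 26.1%, and the valine genes 45.6% and 49.95%. Ivd alone went from 10.6% to 6.15% of the summed TPM, Acad8 from 5.28% to 7.64% and Hibch from 6.13% to 8.64%, all with the lengths behind the deposited TPM.

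Ivd, isovaleryl-CoA dehydrogenase, catalyses the first step that leucine does not share with the other branched-chain amino acids. Its gene lies on chromosome 2 (118861954 to 118882909, plus strand, GRCm38) and has 12 exons in the matched transcript. Ivd was at 3946 counts with siControl and 1939 with siBcat1, or 30.0 and 19.1 CPM. Its log2 fold was -0.65 [-0.73 to -0.57]. This was the lowest fold of the 9 genes. Against Mccc1, the biotin-carrying subunit of the next enzyme, Ivd in deposited TPM stood at a ratio of 2.001 in siControl and 1.24 in siBcat1, and against Auh at 1.64 and 0.807. On GENCODE lengths these ratios were 0.929 and 0.575 against Mccc1 and 0.908 and 0.447 against Auh, so which gene was the higher depended on the length used. Without removal of a length trend, the change of these ratios between the libraries did not depend on that length. The log2 ratio of the libraries in TPM differed from that in unscaled counts by -0.13 for Ivd, Mccc1 and Auh alike. In log2 fold, Mccc1 was above Ivd by 0.69 and Auh by 1.02. These were 0.36 and 0.24 with the trend on GENCODE length removed, and 0.98 and 0.72 with that on implied length removed.

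The stretch before the Ivd start is shown because Ivd is the member with the lowest fold. It is 210 bases of the plus strand, chr2:118861744-118861953 (RefSeq promoter table, GRCm38.p6), and capitals mark ATTGG, which is the CCAAT box read on the other strand.

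Ivd: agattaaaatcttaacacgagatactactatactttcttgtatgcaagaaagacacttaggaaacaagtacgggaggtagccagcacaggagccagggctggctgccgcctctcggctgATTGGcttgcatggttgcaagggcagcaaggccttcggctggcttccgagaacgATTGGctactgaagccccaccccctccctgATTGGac

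The printed stretch has 3 such matches, all in the same orientation. In the 250 bases before the RefSeq start, Ivd has 4 matches to CCAAT on either strand, Aldh6a1 has 4, and Mccc1 and Mccc2 have 3 each, while Acad8 and Hibadh have 1 each and Acadsb, Auh and Hibch have none. Over all 27025 promoters of that length, 34.5% hold CCAAT at least once, 2.98% hold it 3 or more times and 0.918% 4 or more times. The genes with 3 or 4 matches had log2 folds of -0.65, 0.04, -0.10 and 0.13, so the 4 do not share a fold, and a match of letters is not a bound site. The motif was chosen after the sequences and folds had been seen.

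Mccc1 encodes the biotin-carrying subunit of methylcrotonyl-CoA carboxylase and Mccc2 the carboxyltransferase subunit, and the enzyme needs both. Mccc1 (chromosome 3, 35959312 to 36000678, minus strand) was at 2846 and 2257 counts in siControl and siBcat1, and its log2 fold was 0.04 [-0.04 to 0.12]. Mccc2 (chromosome 13, 99948530 to 100015639, minus strand) was at 2335 and 1682 counts, and its log2 fold was -0.10 [-0.19 to -0.01]. Mccc2 differed from Mccc1 by -0.14 [-0.26 to -0.02] in log2 fold, and per length the ratio of Mccc2 to Mccc1 was 1.15 in siControl and 1.05 in siBcat1. The difference was -0.24 with the length trend removed and -0.41 with the trend on the length implied by the deposited values removed. A difference between the folds of 2 genes does not depend on the scaling factors, which cancel.

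Auh encodes 3-methylglutaconyl-CoA hydratase, a protein also known to bind AU-rich RNA. The gene (chromosome 13, 52835119 to 52929681, minus strand) was at 1565 and 1563 counts, which with the smaller siBcat1 library came to a log2 fold of 0.37 [0.27 to 0.48]. In TPM it had 18.4 and 16.8. Auh has the shortest transcript of the 9, 1320 bases, and with the trend on length removed its fold was -0.13. Within the leucine branch the folds thus ranged from -0.65 for Ivd to 0.37 for Auh, a difference of 1.02 [0.89 to 1.15], which was 0.24 with the trend on GENCODE length removed and 0.72 with that on implied length removed. Auh was above Mccc1 by 0.33 [0.20 to 0.46], and this turned to -0.13 and -0.26 in the same settings.

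Acadsb, the short/branched-chain acyl-CoA dehydrogenase, was the one isoleucine gene of the set and took the most counts of any member. It lies on chromosome 7 (131410601 to 131448944, plus strand). Counts of Acadsb were 15666 with siControl and 13360 with siBcat1, or 119 and 132 CPM, and its log2 fold was 0.15 [0.11 to 0.18]. Its share of the counts of the 9 genes was 36.2% in siControl and 36.4% in siBcat1, with intervals of 35.8 to 36.7% and 35.9 to 36.9%.

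Acad8 and Hibch, the dehydrogenase and the hydrolase of the valine branch, were higher by nearly the same amount in scaled counts. Acad8 (chromosome 9, 26974135 to 26999566, minus strand) was at 2724 counts with siControl and 3341 with siBcat1, or 20.7 and 33.0 CPM, and its log2 fold was 0.67 [0.60 to 0.74]. Hibch (chromosome 1, 52844929 to 52920986, plus strand) was at 2031 and 2424 counts, or 15.5 and 23.9 CPM, and its log2 fold was 0.63 [0.55 to 0.72]. Hibch and Acad8 differed by -0.04 [-0.15 to 0.07] in log2 fold, an interval that holds 0. With the length trend removed they differed by -0.37, and with the length and GC trends removed by -0.49. In TPM each gene differed less between the libraries, from 15.01 to 16.8 for Acad8 and from 17.4 to 19.0 for Hibch.

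Hibadh and Aldh6a1, which act after Hibch, did not share that difference. Hibadh (chromosome 6, 52546228 to 52640389, minus strand) was at 9218 and 7677 counts, and its log2 fold was 0.11 [0.07 to 0.16]. Aldh6a1 (chromosome 12, 84430717 to 84451004, minus strand) was at 2895 and 2438 counts, and its log2 fold was 0.13 [0.05 to 0.21]. Hibadh was below Acad8 by a log2 difference of -0.56 [-0.64 to -0.47] and Aldh6a1 by -0.54 [-0.65 to -0.43], whereas Aldh6a1 and Hibadh differed by 0.02 [-0.07 to 0.11]. These differences were larger than counting error, and culture-to-culture variation was not measured. The grouping rested in part on length: with the length trend removed, Hibadh differed from Acad8 by -0.89, Hibch from Acad8 by -0.37, Aldh6a1 from Hibch by -0.027, and Aldh6a1 was above Hibadh by 0.49. Within the valine genes Hibadh made up 64.7% of the TPM in siControl and 58.1% in siBcat1.

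The 3 acyl-CoA dehydrogenases of the set ran from low to high in the order Ivd, Acadsb, Acad8 in scaled counts. Acadsb was above Ivd by 0.80 [0.71 to 0.88] in log2 fold, and Acad8 was above Acadsb by 0.52 [0.44 to 0.61]. With the trend on GENCODE length removed, Acadsb was above Ivd by 1.26 and Acad8 differed from Acadsb by -0.16. With the trend on implied length removed the values were 1.19 and 0.39, so the order of Acadsb and Acad8 depended on the length used for Acadsb. The widest contrast of the 13 pairs compared was Acad8 against Ivd, 1.32 [1.21 to 1.43], or 2.50-fold. Put as a ratio per length, Ivd exceeded Acad8 with 2.01 in siControl and was under it with 0.804 in siBcat1, and on GENCODE lengths the ratios were 1.13 and 0.453. In TPM the difference was 1.31, which follows almost directly from the counts. It was 1.10 with the length trend removed and 1.58 with the implied length trend removed, both past 2-fold. With length and GC trends removed it was 0.90, which is under 2-fold.

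**Figure D2:**
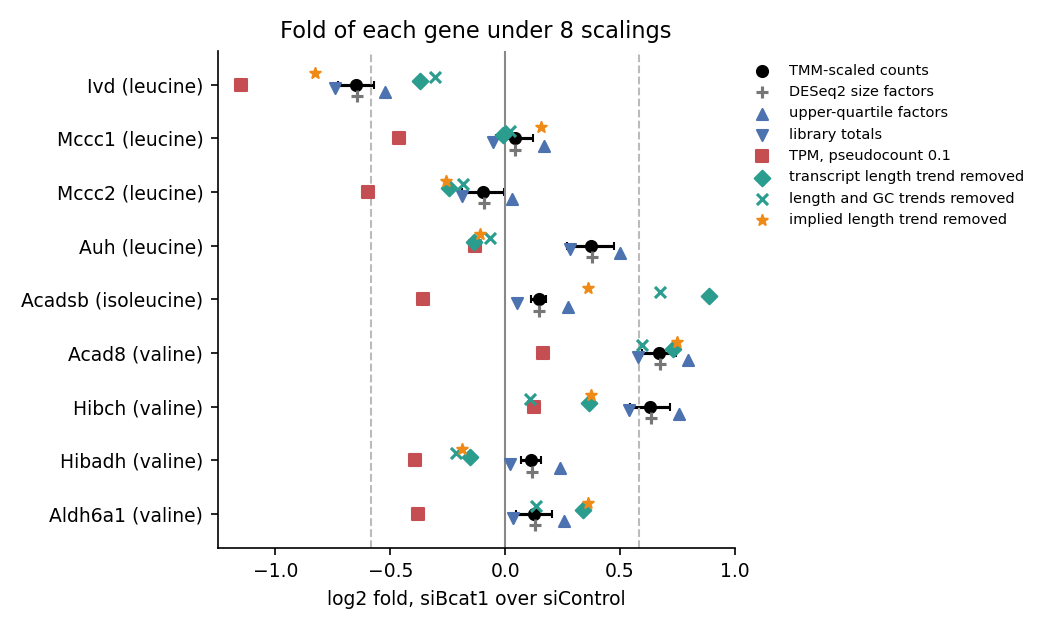
log2 fold (siBcat1 over siControl) of each gene under 8 scalings, with the counting interval of the TMM-scaled value as a black bar and dashed lines at 1.5-fold. Every Ivd value lies below 0 and every Acad8 and Hibch value above 0, while TPM values of the other 6 genes lie below 0.

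Transcript length moved with the folds in these libraries. Across 9886 genes with a length, which are not independent replicates and share both libraries, the log2 fold and the length of the GENCODE transcript had a Spearman correlation of -0.652. The members' lengths ran from 1320 bases for Auh to 6081 bases for Acadsb, so they were read against the trend as well. With the trend removed, 12.8% of genes passed 1.5-fold upward and 14.3% downward. On that scale Acadsb with 0.89 and Acad8 with 0.73 passed upward, none of the 9 passed downward, and the median of the 9 genes was -0.0081. Acadsb had a higher length-adjusted fold than 94.4% of genes and Acad8 than 91.3%, whereas Ivd, with -0.37, had a higher one than 23.9%. Hibch had 0.37, Aldh6a1 0.34, Mccc1 -0.0081, Auh -0.13, Hibadh -0.15 and Mccc2 -0.25.

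For Ivd and Acadsb the transcript length itself was in doubt. Deposited counts divided by deposited TPM give the length the authors' values were scaled by, up to a constant that was set so that the median gene equals its GENCODE length. For Acad8, Hibch, Mccc2, Auh and Aldh6a1 the implied length was within 2% of the GENCODE length, with ratios of 1.00 to 1.02, and Hibadh had 0.9501 and Mccc1 1.21. Ivd had an implied length of 2067 bases against 3665 in GENCODE, and Acadsb 3348 against 6081, ratios of 0.564 and 0.551. When the trend on implied length was removed, Ivd had -0.83 and Acadsb 0.36. Ivd was then at least 1.5-fold lower and Acadsb was not at least 1.5-fold higher. Acad8 had 0.75 and Hibch 0.37 in the same setting, close to their values with GENCODE lengths.

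**Figure D3:**
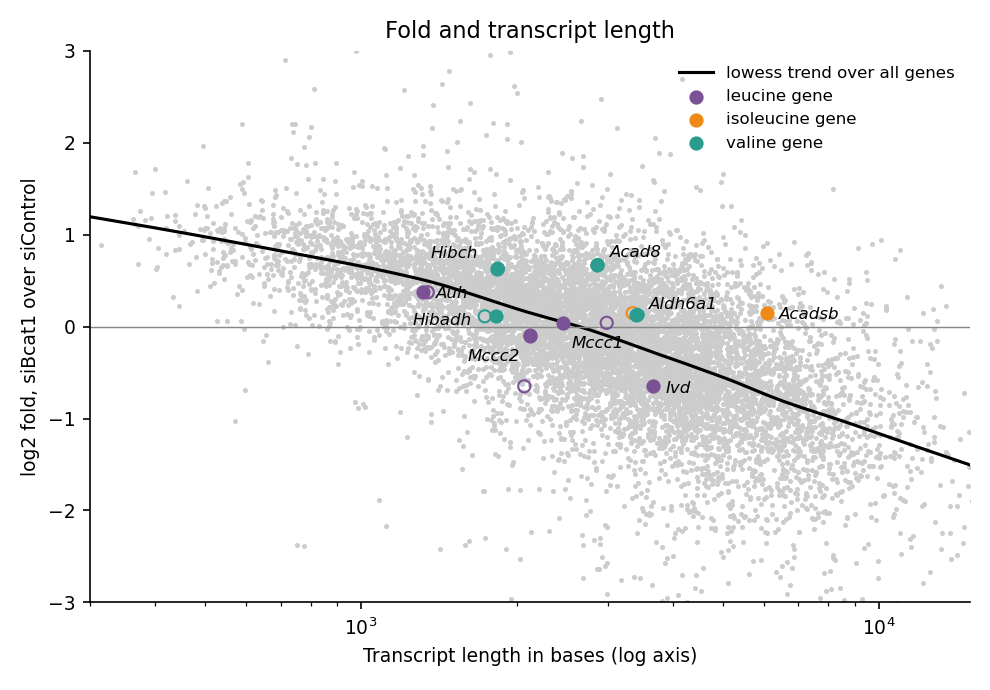
log2 fold against transcript length (log axis) for 9886 genes in grey, the lowess trend as a black line, and the 9 genes in colour at their GENCODE length (filled) and at the length implied by counts and TPM (open); 85 grey points lie outside the axes. Ivd lies below the trend at both lengths, Acad8 above it, and Acadsb and Ivd have open circles far to the left of the filled ones.

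Other genes of the pathway lay mostly within 1.5-fold too, as did 5641 of all 9935 genes. The counts of each list below are to be read beside the shares of all genes. These were 17.6% upward and 25.6% downward in scaled counts, and 12.8% and 14.3% with the length trend removed. Of 57 measured genes in 9 lists of neighbouring functions, 8 passed upward, 8 passed downward and 41 lay between, with a median log2 fold of 0.13. Upstream of the 9 genes, none of the 7 measured genes other than Bcat1 passed 1.5-fold: Dld, the shared dihydrolipoamide dehydrogenase, had 0.50, Dbt, the acyltransferase core of the ketoacid dehydrogenase, -0.24, and Slc25a44, a mitochondrial carrier of branched-chain amino acids, -0.58. The median of these 7 was 0.17. Slc25a44 lay just inside the threshold, at 1.499-fold lower, with an interval of -0.65 to -0.51 in log2 fold. In TPM at a pseudocount of 0.1, 3 of the 7 passed downward, where 48.8% of all genes did.

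Among 15 measured genes of shared and later steps, 3 were higher and 2 lower, with a median of 0.21. Mcee, which epimerises methylmalonyl-CoA, had 0.99, Hsd17b10, the dehydrogenase of the isoleucine branch after hydration, had 0.89, and Abat, the GABA transaminase that also acts on a valine product, had -1.04. Mcee and Hsd17b10 have short transcripts, 828 and 962 bases, and with the length trend removed they had 0.24 and 0.21, while Abat had -0.80. Pcca, a propionyl-CoA carboxylase subunit named after its value had been seen, was the other lower gene, with -0.70. Electron transfer flavoprotein carries electrons away from all 3 acyl-CoA dehydrogenases. Of its genes Etfb had 0.89, Etfa 0.50 and its ubiquinone oxidoreductase gene Etfdh -0.13. With the length trend removed these were 0.18, 0.027 and -0.20, none past 1.5-fold.

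The other acyl-CoA dehydrogenases gave a setting for Ivd and Acad8. Of 7 measured genes 2 passed upward, Acadm with 0.78 and Acadvl with 0.77, and none passed downward. Ivd lay below all 7, in scaled counts and with the length trend removed. Acadl had 0.48. Acadm and Acadvl, for medium and very long fatty acyl chains, kept 0.61 and 0.63 with the length trend removed. The enoyl-CoA hydratase relatives of Auh had none of 6 past 1.5-fold, with a median of 0.18 and Eci1 at 0.50, Cdyl at -0.43 and Eci2 at 0.35.

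Cofactor and regulator genes were divided. For cobalamin, a cofactor of the mutase that acts on methylmalonyl-CoA, made from propionyl-CoA, 1 of 8 genes was higher, the receptor gene Cd320 with 0.91, and 2 were lower, Mtr with -1.35 and Mtrr with -0.76, which serve methionine synthesis. With the length trend removed Mtr had -0.35 and Mtrr -0.48, so none of the 8 passed downward, and Cd320 with 0.59 and Lmbrd1, named after its value had been seen, with 0.60 passed upward. The length of Mtr was in doubt too, 8294 bases in GENCODE and 4487 as implied by counts and TPM. With the trend on implied length removed Mtr had -0.91 and Mtrr -0.42. In that setting 1 of the 8 passed downward and 2 passed upward, and the shares of all genes were not worked out. For biotin, the cofactor of MCCC1, 3 genes were measured: Hlcs, which attaches biotin to carboxylases, had -0.91, Acaca, acetyl-CoA carboxylase, -0.93, and Btd, biotinidase, 0.24. Their median of -0.91 turned to 0.15 with the length trend removed, where Hlcs had -0.39 and Acaca 0.15. Other mitochondrial aldehyde dehydrogenases had 2 of 5 lower, Aldh1l2 with -1.76 and Aldh18a1 with -0.91, and Aldh7a1 with 0.20. Of the transcription factors, Esrra had 0.63, or 0.52 with the length trend removed, Atf4 -0.24 and Klf15 -0.04, and the other 3 lay under the minimum.

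**Figure D4:**
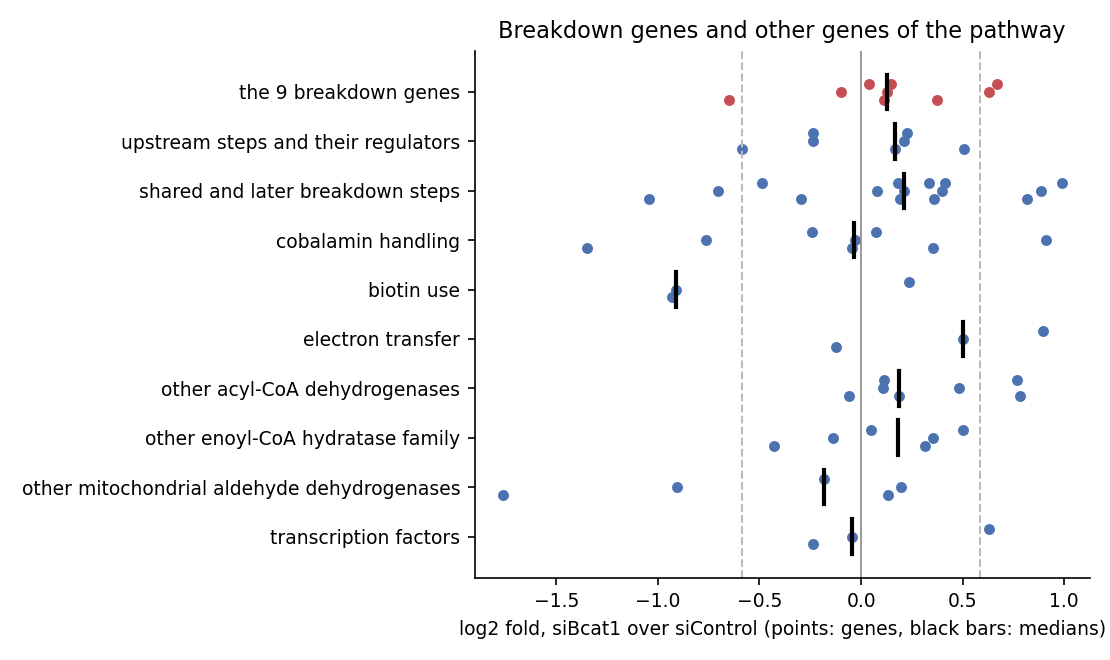
log2 fold (siBcat1 over siControl, scaled counts) of the 9 genes in red and of each list of other pathway genes in blue, with black bars at the medians and dashed lines at 1.5-fold; Bcat1 is left out. The 9 genes range from -0.65 to 0.67 and their median of 0.13 equals that of the 57 listed genes to 2 decimals.

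There are 3 members that start head to head with another gene on the opposite strand within 1000 bases. Acad8 starts 144 bases from Thyn1, which encodes thymocyte nuclear protein, in the GENCODE models. Thyn1 was at 6281 counts with siControl and 10144 with siBcat1, and its log2 fold was 1.07 [1.02 to 1.11], and so both genes of the pair were higher. With the length trend removed Thyn1, whose transcripts are short, had 0.33 and Acad8 0.73. Acadsb starts 80 bases from Ikzf5, a zinc finger factor gene, which was at 2895 and 1121 counts with a log2 fold of -0.99 [-1.09 to -0.89] against 0.15 for Acadsb. Aldh6a1 starts 418 bases from Lin52, a subunit of the DREAM complex, with 931 and 618 counts and -0.22 [-0.36 to -0.07].

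Across all 407 head-to-head pairs of measured genes the folds of partners had a Spearman correlation of 0.015, and 13 pairs (3.19%) had both genes past 1.5-fold upward. The pairs share both libraries and the length trend, and the value is a description. The neighbours of Acadsb and Aldh6a1 lay on the other side of 0 from the member.

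The stretch between the starts of Acad8 and Thyn1 is shown because it lies between both genes of the pair that was higher. It is 110 bases of the minus strand, chr9:26999567-26999676 (RefSeq promoter table, GRCm38.p6, in which Thyn1 starts nearer to Acad8 than in GENCODE), and capitals mark matches to ACTACA, any 2 bases, then TCCCAG, on either strand.

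Acad8: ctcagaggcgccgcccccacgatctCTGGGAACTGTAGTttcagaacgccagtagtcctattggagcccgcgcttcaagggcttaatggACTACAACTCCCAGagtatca

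The stretch holds 2 matches, 1 on each strand. Of 27025 promoters, 1.04% have this pattern in the 250 bases before the start and 17 have it at least 2 times, and Acad8 is the 1 member of the 9 that has it. The GC box GGGCGG, on either strand, occurs in 6 of the 9 promoters and in 32.9% of all, with 5 matches in Hibch and 3 each in Acad8 and Acadsb. None of the 9 has TATAAA (12.97% of all), TGACGTCA (1.62%) or the estrogen-related receptor element TCAAGGTCA (0.366%), and Mccc2 has CACGTG (6.05%). The ACTACA pattern was noticed in the sequence and then counted.

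**Figure D5:**
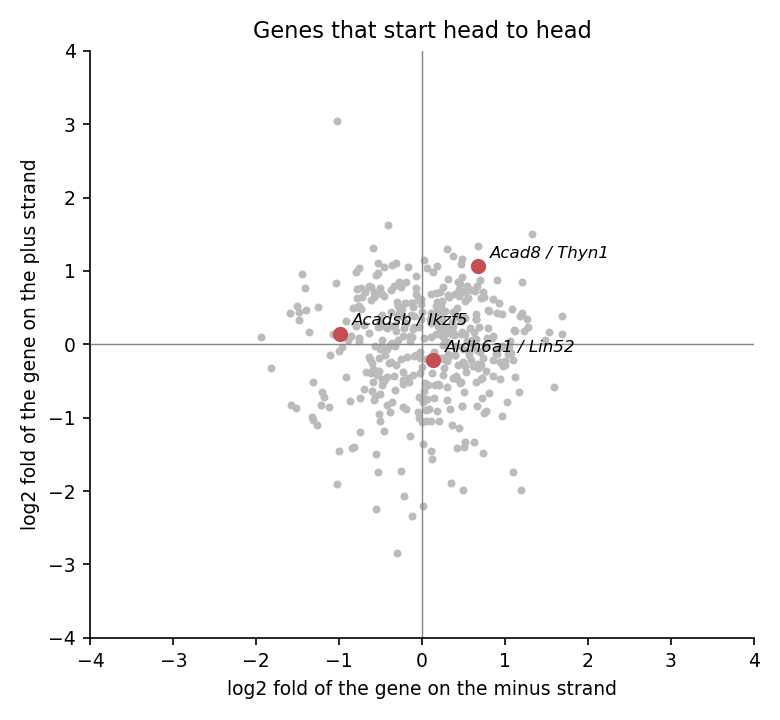
log2 fold of both genes of each head-to-head pair, with the minus-strand gene on the horizontal axis and the plus-strand gene on the vertical axis, for 407 pairs in grey and the 3 pairs that hold a member in red. Acad8 and Thyn1 lie together in the upper right, and the other 2 pairs lie close to 0 on the vertical axis.

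Overlapping gene models bear on 3 members. Mccc1 shares 198 exonic bases with Mccc1os on the other strand, which had 23 and 27 counts, and it shares exonic bases, 94 and 321, with an antisense RNA and a processed pseudogene that were not analysed here. Aldh6a1 shares 1078 with Bbof1, which had 9 and 23 counts. Hibadh shares 122 exonic bases with a small nucleolar RNA. Acadsb lies within the extent of the longest Fgfr2 model without sharing exonic bases. Whether counting used the strand is not given in the sources used here, so reads in the shared bases cannot be assigned with certainty.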

How the data were processed

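RNA of mouse cardiac myofibroblasts was sequenced in 2 libraries, 1 per siRNA, made with a stranded mRNA kit, per the labels' protocols. Per the submitters' processing notes the tools were FastQC, Trimmomatic, HISAT2 and StringTie, on build mm10. The sources used here name neither their versions nor whether counting used strand or read pairs. The authors deposited whole-number gene counts, not normalized, and per the file headers 1 TPM value a gene and library. Replicate spread is unknown, and intervals cover counting error only; they take reads as independent, which PCR copies are not.

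Counts were scaled with TMM factors from edgeR 4.0.16 in R 4.3.3, estimated over the whole table. Intervals of folds are Clopper-Pearson intervals of the siBcat1 share of both counts, those of differences between genes are exact conditional odds ratio intervals, and those of TPM are exact Poisson intervals of the counts (scipy 1.17.1). GENCODE M21 lengths were matched by RefSeq accession, and trends were removed by lowess (fraction 0.3, 3 iterations, statsmodels 0.14.6). Implied length is the mean over both libraries of counts divided by TPM, scaled so that the median ratio to GENCODE length is 1; deposited TPM was also put on GENCODE lengths, an alternative added after seeing the data. Calculations were tested on simulated counts with counting error, without and with a length trend. The simulated counts held no spread between replicates and no error in transcript length, so the test does not bear on either. Alternatives were DESeq2 1.42.0 size factors, upper-quartile factors, library totals, TPM with pseudocounts of 1 and 0.1, trends on length, on length and GC content, and on implied length, minimum CPM of 1, 20 or none (prior count 0.5), a 2-fold threshold, whole intervals past the threshold, and the mean. TPM folds are on the log2(TPM + pseudocount) scale, over genes chosen by the CPM minimum.

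Named genes were the 9 members, Bcat1 and, of each list, up to 3 measured genes with the largest absolute log2 fold; genes that start head to head with or overlap a member were added after the data had been seen. The members and lists were chosen with earlier results of these data known. Of 6 listed biotin genes, 5 were in the table. Sequence motifs were chosen after the sequences had been seen, and both strands were searched. The values of 1 listed gene of the shared and later steps are not reported here.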

Additional observations from a re-analysis of the deposited data

How the results depend on the processing

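Of all genes, 17.6% passed 1.5-fold upward and 25.6% downward in scaled counts. With the length trend removed these shares were 12.8% and 14.3%. In TPM at a pseudocount of 0.1 they were 3.94% and 48.8%, and for the other settings they were not worked out. The number of the 9 genes at least 1.5-fold higher was 2. It was 0 with library totals, with TPM at a pseudocount of 1 or 0.1 and at a 2-fold threshold, and 1 with the trend on implied length removed, at a minimum of 20 CPM and when the whole interval had to pass. The number at least 1.5-fold lower was 1. It was 0 with upper-quartile factors, with the length trend or the length and GC trends removed, at 2-fold and for whole intervals, and 2 with TPM at a pseudocount of 0.1. Their median log2 fold of 0.13 was 0.26 with upper-quartile factors, 0.036 with library totals, -0.35 and -0.38 with TPM at pseudocounts of 1 and 0.1, -0.0081 with the length trend and 0.020 with the length and GC trends removed. DESeq2 size factors, a minimum of 1 CPM and no minimum left all 3 values close to those reported, as did the mean for the median. The median of the 3 biotin genes, -0.91, was 0.15, 0.16 and 0.019 with the length, the length and GC, and the implied length trends removed. Of the 13 differences between members, none changed sign in TPM, which largely had to be so. For each of the 9 genes the log2 ratio of the libraries in TPM differed from that in unscaled counts by -0.13. Auh against Mccc1 (0.33) turned to -0.13, -0.088 and -0.26 with the length, the length and GC, and the implied length trends removed. Acad8 against Acadsb (0.52) turned to -0.16 and -0.079 in the first 2 settings and was 0.39 in the third, and Aldh6a1 against Hibch (-0.50) was 0.027 with the length and GC trends removed. The length and GC and the implied length settings of these differences were added after seeing the data. The causes of these shifts were not tested. No paired analysis was possible because each group has 1 library, and for the same reason none could be left out. Each member had 1563 or more counts in each library, and the spread between replicates is unknown.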
